A study of Mus musculus with 9 samples.

Results

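The EGR and AP-1 genes described here are 10 mouse genes that encode transcription factors, many of which are switched on early after a stimulus. The 10 are Egr1, Egr2, Egr3, Fos, Fosl1, Fosl2, Jun, Junb, Jund and Atf3. They were chosen by a list of gene symbols drawn up with their values in these data already known, so their levels and changes below describe them and are not an independent test. All 10 were found among the 55401 gene identifiers of the deposited table, and all 10 passed the filter of a mean of at least 1 TPM, as did 12819 genes in all; TPM is a level scaled for transcript length and for the total of the column, so that genes can be compared with each other. The RNA came from RAW264.7 cells, a mouse macrophage line from a male animal that was established from a tumour induced by Abelson leukaemia virus. Per the labels and the study's results text, the cells were treated for 24 h, whereas the study's sequencing methods state a longer time. There were 3 groups: a solvent control (DMSO), solvent with the bacterial cell wall component lipopolysaccharide (LPS), and LPS with skatole, a breakdown product of tryptophan made by gut bacteria (LPS + Ska). The study asked how skatole acts on macrophages that LPS drives towards the inflammatory M1 state. A skatole group without LPS was not analysed here, and all cells were of 1 line.

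EGR proteins are zinc finger factors that bind GC-rich DNA. AP-1 is a dimer of basic leucine zipper proteins, in which a JUN protein pairs with another JUN, a FOS or an ATF protein. In macrophages, signals from Toll-like receptors run through the kinases ERK, JNK and p38 to serum response factor, ternary complex factors and CREB, which sit on the promoters of these genes. The first wave of Fos, Jun, Atf3 and Egr1 transcription is known to be brief, so RNA taken this late shows the later level of these genes and not that first wave.

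Each group had 3 columns, numbered 5, 6 and 7, but those of LPS and LPS + Ska were tied. In LPS, replicate 5 equalled the mean of replicates 6 and 7 for all 17950 genes compared, within 1e-05 TPM, and the same held for all 17658 genes in LPS + Ska. In the DMSO group such a match was seen for at most 0.0614% of genes. An LPS or LPS + Ska group thus holds at most 2 independent values per gene, its SD and the SE of its changes are too small, and how the columns were made is not stated. With 2 recovered values in place of the 3 tied columns, every count of called members given below was the same. These recovered values lie nearer to replicate 5 than replicates 6 and 7 do. That fit therefore cannot show whether the calls outlast the understated spread. With LPS replicate 5 or LPS + Ska replicate 5 left out, 4 members were called lower with LPS + Ska compared with LPS, against 5 with all columns. Nothing says that the columns of a group were separate cultures, so the spread may be technical. The depth of the libraries is unknown, because TPM keeps none; the columns summed to between 999895 and 1000145 TPM and held 12498 to 13012 genes at 1 TPM or more.

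The 7 macrophage markers examined were all detected, at 18.1 to 10200 TPM, whereas every marker of T cells, B cells, fibroblasts, endothelial cells and epithelial cells stayed below 1 TPM. The summed level of the macrophage markers was 11100 to 12100 TPM in DMSO, 5850 to 6180 TPM in LPS and 11500 to 11700 TPM in LPS + Ska, and most of it was Lyz2, which encodes lysozyme. The part of this difference in the results below was not tested. In bulk RNA, fewer cells that express a gene and less of its RNA per cell cannot be told apart.

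The bases just before a RefSeq transcription start are shown for 7 of the 10 genes, since upstream factors can act through such stretches. Among them, Fos, Jun, Jund and Atf3 all fell with LPS. Egr1 was left out of this search, and Egr3 and Fosl1 are not shown. Egr2 has several windows, and the window printed has the start shared with its principal annotated transcript. The bases come from RefSeq (build GRCm38.p6) and run 5′ to 3′ on the strand of the gene, from 130 bases before the start to the base before it. Capitals mark matches to motifs that were picked after the sequences had been seen: a CRE-like site (TGACNTCA), a partial CRE (TGACG), an EGR site (GCGNGGGCG) and a CArG box, each searched on both strands. A CRE is the element bound by CREB and ATF proteins, and a CArG box is the element of serum response factor.
Fos, chr12:85473760-85473889, plus strand: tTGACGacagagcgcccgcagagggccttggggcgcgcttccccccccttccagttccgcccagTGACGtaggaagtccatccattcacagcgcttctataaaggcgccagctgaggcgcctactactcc
Jun, chr4:95052223-95052352, minus strand: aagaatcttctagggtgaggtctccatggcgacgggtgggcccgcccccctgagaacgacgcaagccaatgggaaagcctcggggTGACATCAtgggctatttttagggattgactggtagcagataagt
Atf3, chr1:191183334-191183463, minus strand: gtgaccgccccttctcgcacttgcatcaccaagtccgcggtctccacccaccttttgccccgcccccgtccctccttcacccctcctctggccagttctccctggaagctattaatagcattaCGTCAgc
Jund, chr8:70697609-70697738, plus strand: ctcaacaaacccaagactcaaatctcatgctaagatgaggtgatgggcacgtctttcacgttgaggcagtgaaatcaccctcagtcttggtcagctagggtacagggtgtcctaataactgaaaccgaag
Junb, chr8:84978749-84978878, minus strand: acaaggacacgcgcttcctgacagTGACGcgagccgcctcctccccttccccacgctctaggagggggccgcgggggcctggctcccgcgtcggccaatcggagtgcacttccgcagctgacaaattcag
Egr2, chr10:67537739-67537868, plus strand: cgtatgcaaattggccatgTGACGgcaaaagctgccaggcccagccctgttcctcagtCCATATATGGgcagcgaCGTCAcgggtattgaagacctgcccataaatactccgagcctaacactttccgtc
Fosl2, chr5:32136342-32136471, plus strand: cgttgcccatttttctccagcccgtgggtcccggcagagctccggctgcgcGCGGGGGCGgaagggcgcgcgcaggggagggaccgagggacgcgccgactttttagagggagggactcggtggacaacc

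In these stretches Jun carried a CRE-like site 45 bases before its start. Fos held partial CREs 129 and 66 bases before the start, Junb held one at 106, and Atf3 held one at 7 on the opposite strand. Egr2 held partial CREs at 111 and 55 bases, the second on the opposite strand, and a CArG box at 72 bases. Fosl2 carried an EGR site 79 bases before the start, and the stretch of Jund held a match to none of these motifs. That Jund stretch ends at 70697738, short of the gene start of 70698949 given below, so it is not the sequence next to that start. The RefSeq starts of Junb, Egr2, Fosl2 and Atf3 also differ from the outer ends of the gene spans given below. Over windows from 250 bases before to 50 bases after all 32851 RefSeq starts, 20.8% held a partial CRE, 8.83% a CRE-like site, 5.55% an EGR site and 1.63% a CArG box. The classical AP-1 site (TGANTCA) was in 7.81% of all windows and in 0 of the 7 windows of these genes. A match describes letters in a window, and binding was not measured. Sites more than 250 bases before a start were not searched, so the lack of a match does not show that a gene has no such site.

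When cells received LPS, 4 of the 10 genes fell and 2 rose. When skatole was added to LPS, 5 fell and 0 rose, and compared with DMSO 8 were lower and 0 higher in LPS + Ska. A gene counts as called, as having risen or fallen, when its adjusted p was below 0.05 in the limma fit over all genes and its fold change was above 1.5 or below 0.67. At an unadjusted p below 0.05, with no limit on the fold change, the fit gave 0 higher and 7 lower members for LPS + Ska compared with LPS, and 1 higher and 8 lower for LPS + Ska compared with DMSO. No share of all genes was taken at an unadjusted p, so nothing is read from such counts here or below. The adjusted p alone already called 1139 of 12819 genes higher and 2524 lower in the first of these comparisons, and 2915 and 5201 in the second. Of all 12819 genes tested, 12.7% were called higher and 20% lower with LPS compared with DMSO, 3.35% higher and 6.14% lower with LPS + Ska compared with LPS, and 11.4% higher and 25.3% lower with LPS + Ska compared with DMSO. Since the list was drawn up with these values known, nothing is read from the counts of members beside these shares. The balance of calls over all genes depends on the scaling of the columns: for LPS + Ska compared with LPS it was 429 higher and 787 lower as deposited, against 599 and 539 after median-ratio scaling, and for LPS + Ska compared with DMSO it was 1457 and 3243, against 2209 and 2261. The 2 comparisons with LPS + Ska, and the 2 with DMSO, share columns.

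None of the EGR genes was called between LPS and DMSO, and all 3 had their lowest columns with skatole. Egr1 (ENSMUSG00000038418), the most abundant EGR gene here and a mediator of growth and inflammatory signals, was measured at 54.0, 71.9 and 94.9 TPM in DMSO replicates 5, 6 and 7. The LPS columns gave 83.5, 73.1 and 93.8 TPM. With skatole the values were 31.7, 29.0 and 34.4 TPM. All LPS + Ska columns were below all columns of both other groups, while DMSO and LPS overlapped. The log2 fold change of Egr1 was 0.21 ± 0.18 (SE, n = 3 columns a group, as in each comparison below) for LPS compared with DMSO, which was not called. It fell by 1.37 ± 0.18 on the log2 scale with LPS + Ska compared with LPS, and was called lower than in DMSO at -1.16 ± 0.18.

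Egr3 (ENSMUSG00000033730, chromosome 14, 70077203 to 70082614, plus strand, GRCm38) is a close relative with a role in restraining and shaping lymphocyte responses. Its level was 10.2, 15.6 and 21.8 TPM in DMSO, 17.9, 18.4 and 17.3 TPM in LPS, and 5.56, 5.77 and 5.34 TPM in LPS + Ska. The LPS + Ska columns were again the lowest and overlapped with neither group. Its log2 fold change was -1.52 ± 0.21 with LPS + Ska compared with LPS and -1.30 ± 0.21 compared with DMSO, both called. Of the 10 genes, Egr3 had the lowest change with skatole, and 46 of the 12819 genes tested had a lower one.

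Egr2 (ENSMUSG00000037868, chromosome 10, 67535475 to 67542188, plus strand), known for its part in myeloid differentiation and in myelination, was the scarcest of the EGR genes in every group on average. It stood at 7.01, 8.90 and 23.1 TPM in DMSO, 8.56, 6.10 and 11.0 TPM in LPS, and 3.37, 4.06 and 2.69 TPM in LPS + Ska. DMSO replicate 7 stood far above the other DMSO columns. The log2 fold change of -1.11 ± 0.37 with LPS + Ska compared with LPS missed the limit on the adjusted p, although the columns did not overlap, and it passed in 5 of the alternatives tried, among them the fit without DMSO replicate 7. Compared with DMSO, Egr2 was called lower at -1.52 ± 0.37. For LPS compared with DMSO it was -0.41 ± 0.37, not called, and 0.07 without DMSO replicate 7.

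Replicate 7 was the highest DMSO column for 6 of the 10 genes and the lowest for 2, which are Fos and Fosl1. With this column left out, 2 members were called higher and 4 lower for LPS compared with DMSO, 6 lower for LPS + Ska compared with LPS, and 1 higher and 8 lower for LPS + Ska compared with DMSO.

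**Figure D1:**
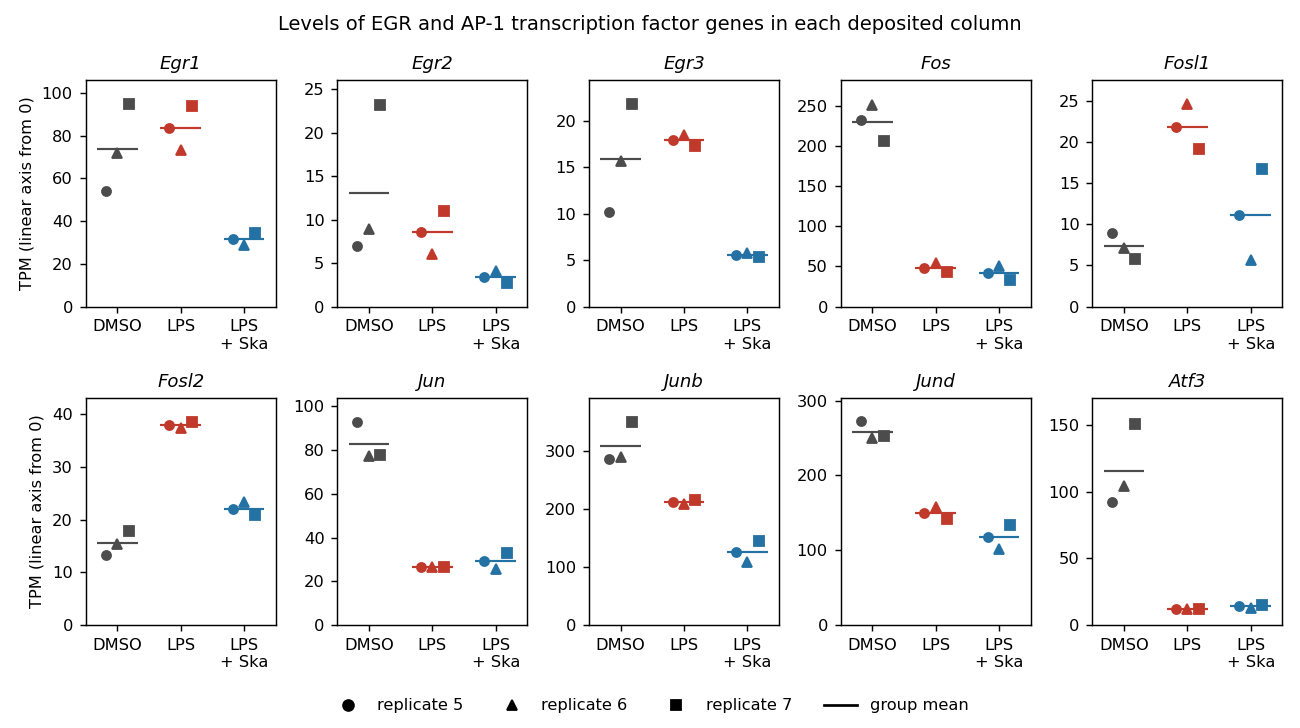
TPM (linear axis from 0) of each of the 10 genes in the 9 columns, with 1 symbol per replicate number and a line at the group mean. Fos, Jun and Atf3 drop from DMSO to LPS and stay low with skatole, Fosl1 and Fosl2 are highest in LPS, and the EGR genes are lowest in LPS + Ska.

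The FOS genes parted with LPS: Fos fell while Fosl1 and Fosl2 rose. Fos (ENSMUSG00000021250, chromosome 12, 85473890 to 85477273, plus strand), with the partial CREs shown above and a TATA box (TATAAA, in 13.6% of all windows) 33 bases before its start, encodes the founding FOS protein with a strong activation domain. It was at 233, 251 and 207 TPM in DMSO, 48.5, 54.1 and 43.0 TPM in LPS, and 42.0, 51.1 and 32.9 TPM in LPS + Ska. Both groups with LPS lay below every DMSO column and overlapped with each other. The log2 fold change was -2.23 ± 0.15 for LPS compared with DMSO and -2.45 ± 0.15 for LPS + Ska compared with DMSO, both called, against -0.22 ± 0.15 for LPS + Ska compared with LPS, which was not.

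Fosl1 (ENSMUSG00000024912, chromosome 19, 5447547 to 5455946, plus strand) and Fosl2 (ENSMUSG00000029135, chromosome 5, 32135801 to 32157842, plus strand) encode the FOS-related proteins FRA1 and FRA2, which lack the strong activation domain of FOS and build longer-lived AP-1 dimers. Fosl2 measured 13.3, 15.4 and 17.9 TPM in DMSO, 38.0, 37.4 and 38.6 TPM in LPS, and 22.1, 23.3 and 20.9 TPM in LPS + Ska. The columns of the 3 groups formed 3 separate levels, with LPS + Ska between the others. Fosl2 rose by 1.25 ± 0.10 with LPS and fell by 0.76 ± 0.10 with skatole on the log2 scale. It remained 0.49 ± 0.10 above DMSO, inside the fold change limit, and was called higher there after median-ratio scaling, at 0.68.

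Fosl1 was less abundant and its columns were less even. It measured 8.99, 7.15 and 5.80 TPM in DMSO, 21.9, 24.6 and 19.2 TPM in LPS, and 11.2, 5.66 and 16.7 TPM in LPS + Ska. Replicate 6 of LPS + Ska lay below all DMSO columns, whereas replicate 7 was nearly as high as the lowest LPS column. The rise with LPS of 1.47 ± 0.30 was called. The log2 fold change of -1.01 ± 0.30 with LPS + Ska compared with LPS was called as well, but the call was lost in 9 of the alternatives, including median-ratio scaling at -0.92 and the fits without any 1 of the 3 LPS columns, without DMSO replicate 6 or without LPS + Ska replicate 5. Over all alternatives it ranged from -1.34 to -0.63. With the replicate number as a block the change stayed at -1.01 but lost its call, which left 4 members called lower in this comparison. The value against DMSO was 0.46 ± 0.30, not called; without LPS + Ska replicate 6 it was 0.84 and called.

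**Figure D2:**
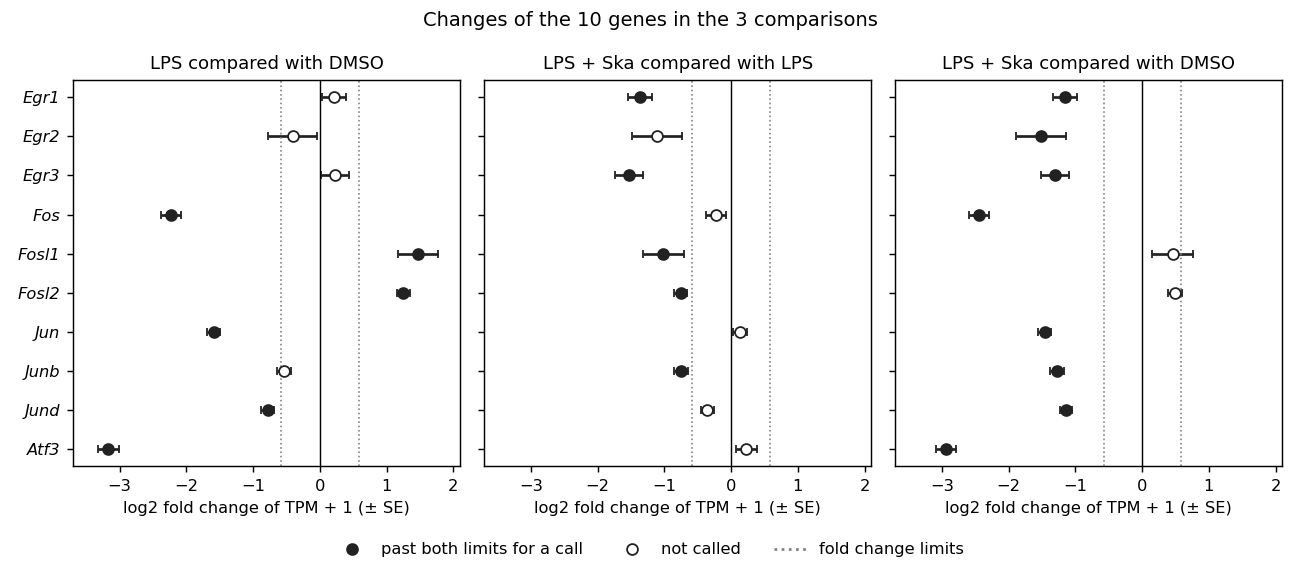
Log2 fold change of TPM + 1 with its SE for the 10 genes in the 3 comparisons, with filled points past both limits for a call and dotted lines at the fold change limits of 0.58 and -0.58. With LPS the points run from -3.17 (Atf3) to 1.47 (Fosl1), and with LPS + Ska compared with LPS they run from -1.52 (Egr3) to 0.23 (Atf3).

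Summed over the 3 FOS genes, the level was 253 TPM in DMSO on average (231 to 274), 108 TPM in LPS (101 to 116) and 75.3 TPM in LPS + Ska (70.4 to 80.1). Fos itself made up 90.9% of that sum in DMSO, 44.7% in LPS and 55.4% in LPS + Ska. The share of Fosl2 was 6.19%, 35.2% and 29.4% in the same order, and that of Fosl1 was 2.88%, 20.1% and 15.2%. The FOS pool was therefore mostly Fos in DMSO and held more RNA of the FRA genes than of Fos in all LPS columns. In LPS + Ska the share of Fos ranged from 46.7% to 63.8%.

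The columns of all 3 JUN genes were lower in both groups with LPS than in DMSO, to different degrees. Jun (ENSMUSG00000052684, chromosome 4, 95049034 to 95052222, minus strand), with the CRE-like site shown above, encodes the JUN protein that JNK phosphorylates. It was at 92.7, 77.4 and 77.9 TPM in DMSO, 26.6, 26.6 and 26.7 TPM in LPS, and 29.5, 25.9 and 33.1 TPM in LPS + Ska. Every column with LPS was under every DMSO column, and the 2 groups with LPS overlapped. Jun fell by 1.59 ± 0.10 on the log2 scale with LPS and was lower than DMSO by -1.46 ± 0.10 with LPS + Ska. Its change from LPS to LPS + Ska was 0.14 ± 0.10, not called.

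Junb (ENSMUSG00000052837, chromosome 8, 84974484 to 84978718, minus strand), which encodes a weaker activator that can oppose JUN, was the most abundant of the 10 genes on average in each group. Its level was 286, 289 and 349 TPM in DMSO, 212, 209 and 215 TPM in LPS, and 126, 109 and 144 TPM in LPS + Ska. The groups formed 3 steps without overlap. The first step, -0.53 ± 0.11 with LPS, passed the limit on the adjusted p but not that on the fold change, and reached -0.58 and a call without DMSO replicate 5. The second, -0.75 ± 0.11 with LPS + Ska compared with LPS, was called, as was the whole distance to DMSO at -1.28 ± 0.11.

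Jund (ENSMUSG00000071076, chromosome 8, 70698949 to 70700616, plus strand) encodes the JUN protein that resting cells already make in quantity. It gave 272, 251 and 253 TPM in DMSO, 150, 158 and 141 TPM in LPS, and 117, 101 and 134 TPM in LPS + Ska. These columns too formed 3 steps without overlap. The fall with LPS of -0.79 ± 0.09 was called. The difference between LPS + Ska and LPS, -0.36 ± 0.09, passed on the adjusted p but lay inside the fold change limit, and the value against DMSO was -1.14 ± 0.09, called.

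The 3 JUN genes summed to 649 TPM in DMSO (617 to 680), 388 TPM in LPS (383 to 394) and 273 TPM in LPS + Ska (236 to 311). Jun was the smallest part, at 12.7%, 6.86% and 10.8% of the sum in the 3 groups. Junb supplied 47.4%, 54.6% and 46.2%, and Jund the remainder. For each TPM of FOS gene RNA there were 2.58 TPM of JUN gene RNA in DMSO, 3.59 in LPS and 3.66 in LPS + Ska, and the range in LPS + Ska (2.94 to 4.41) overlapped with the other groups.

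**Figure D3:**
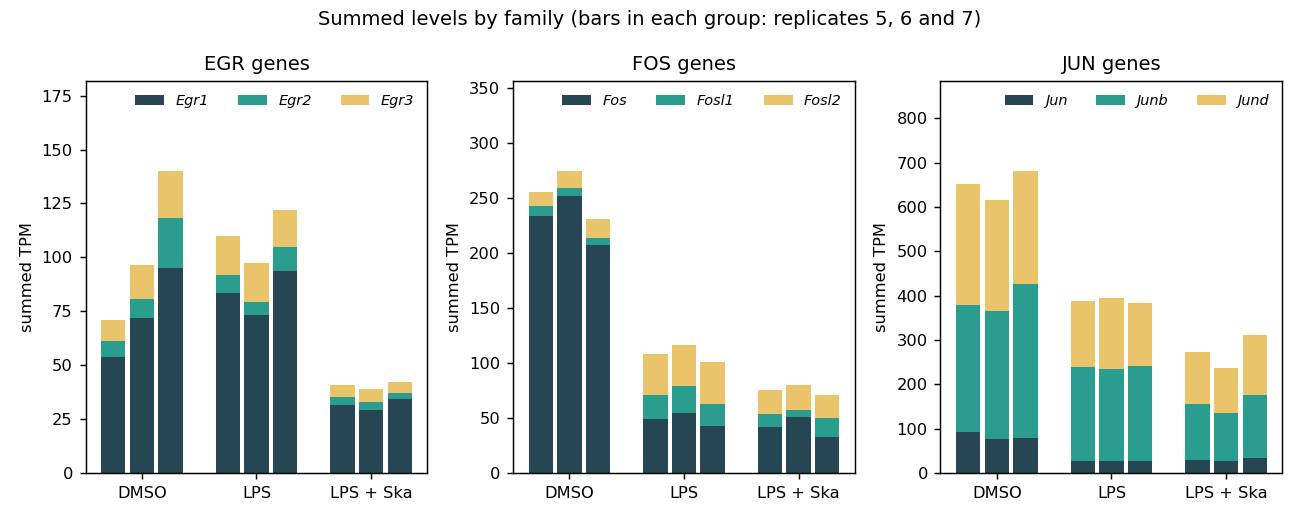
Summed TPM of the EGR, FOS and JUN genes in each of the 9 columns, stacked by gene, with replicates 5, 6 and 7 from left to right in each group. The FOS sum falls from 253 TPM in DMSO to 108 TPM in LPS on average as Fos shrinks and Fosl1 and Fosl2 grow, and the EGR sum is 40.6 TPM in LPS + Ska against 110 TPM in LPS.

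Atf3 (ENSMUSG00000026628, chromosome 1, 191170296 to 191218039, minus strand) encodes a stress-induced ATF protein that acts as a brake on Toll-like receptor target genes. It showed the steepest fall of the 10. The values were 92.5, 104 and 151 TPM in DMSO, 11.7, 11.7 and 11.7 TPM in LPS, and 13.9, 12.9 and 15.0 TPM in LPS + Ska. The DMSO mean was 9.88 times the LPS mean. On the log2 scale Atf3 fell by 3.17 ± 0.15 with LPS, and 11 of the 12819 genes tested fell further. LPS + Ska was -2.94 ± 0.15 from DMSO, called. It lay 0.23 ± 0.15 above LPS without overlap of the columns, and this was not called.

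The columns of LPS and DMSO did not overlap for 7 of the 10 genes, those of LPS + Ska and LPS did not for 8, and those of LPS + Ska and DMSO did not for 9. Of all 12819 genes tested, 68.9%, 51.2% and 64.8% had no overlap in the same comparisons, in either direction, so a lack of overlap was common in this table and nothing is read from the counts of members. The median log2 fold change of the 10 genes was -0.47 with LPS compared with DMSO, against -0.067 over all genes. It was -0.75 with LPS + Ska compared with LPS, against -0.096, and -1.29 with LPS + Ska compared with DMSO, against -0.18. Median-ratio scaling brought this last median over all genes from -0.18 to -0.0045 and that of the 10 genes to -1.11. Under it 8 genes were still called lower in LPS + Ska compared with DMSO and 4 compared with LPS.

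In DMSO the order of the mean levels was Junb, Jund, Fos, Atf3, Jun, Egr1, Egr3, Fosl2, Egr2 and Fosl1. Within that order the columns of Jund and Fos overlapped, as did those of Atf3, Jun and Egr1 as neighbours and those of the last 4 genes as neighbours. In LPS, Junb and Jund were followed by Egr1, Fos, Fosl2, Jun, Fosl1, Egr3, Atf3 and Egr2, and no neighbours overlapped. The tied columns of LPS and LPS + Ska hold fewer independent values per gene than those of DMSO. Overlaps within the groups therefore cannot be compared with each other. In LPS + Ska the order was Junb, Jund, Fos, Egr1, Jun, Fosl2, Atf3, Fosl1, Egr3 and Egr2; Junb and Jund overlapped, as did Fos, Egr1 and Jun as neighbours and Atf3, Fosl1 and Egr3 as neighbours. Among the 12819 genes tested, Atf3 stood at percentile 88.7 of level in DMSO and 37.2 in LPS, and Fosl1 at 26.6 and 52.4. Egr1 stood at percentile 84.1 in LPS and 64.1 in LPS + Ska, while the lowest percentile of Junb was 90.3.

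Genes that work with these factors or upstream of them were taken from lists of textbook relations, drawn up with earlier results of these data known. Nothing is therefore read from the counts in these lists beside the shares of all genes given above. Of 14 other AP-1 partners, 11 were tested, and 1 rose and 2 fell with LPS. Atf2, a p38 and JNK substrate, rose by 1.03 ± 0.10 with LPS. Fosb, named after its values were seen because it is the FOS gene outside the list of 10, fell by 2.19 ± 0.41 with LPS, from 4.70, 4.72 and 15.6 TPM in DMSO to between 0.389 and 1.24 TPM.

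The EGR co-repressors NAB1 and NAB2 bind EGR proteins and curb them, and Nab2 is itself a known EGR target. Nab2 stood at 36.8, 44.4 and 41.2 TPM in DMSO, 47.1, 48.1 and 46.2 TPM in LPS, and 22.8, 21.0 and 24.6 TPM in LPS + Ska. Its columns with skatole were below all others, as for Egr1, Egr2 and Egr3. Whether the levels of Nab2 and of the EGR genes are linked here was not tested. The log2 fold change with LPS + Ska compared with LPS was -1.02 ± 0.08 (adjusted p = 8.1e-05). Nab1 rose with LPS, by 0.68 ± 0.07 (adjusted p = 3.3e-05), and its change with skatole was -0.007 ± 0.07, not called.

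The factors and kinases that feed these genes showed 0 calls in either direction between LPS + Ska and LPS, among 11 serum response, ternary complex and CREB factors and 13 kinases tested with limma. At an unadjusted p below 0.05, 0 were higher and 4 lower in each of the 2 lists. Their medians in that comparison were -0.21 and -0.055, and after median-ratio scaling they were -0.11 and 0.048. With LPS, Crem, a CREB relative, rose by 0.72 ± 0.20 (adjusted p = 0.012), a call lost without DMSO replicate 5, at 0.45. Mrtfa, a co-factor of serum response factor, fell by 0.74 ± 0.06 with LPS. Among the kinases 0 rose and 3 fell with LPS (5 higher and 6 lower at an unadjusted p below 0.05), led by Mapk3, which encodes ERK1, at -1.09 ± 0.08 (adjusted p = 6.2e-06). These are RNA levels, and the activity of the kinases was not measured in these libraries. The paper did examine it by Western blot, in cells taken at an earlier time than the RNA. It reports that LPS activated this signalling and that p38, JNK and ERK were less phosphorylated when skatole was present. Flat kinase RNA therefore does not show unchanged signalling. Whether the lower phosphorylation bears on the RNA levels given here was not tested.

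The feedback list of MAPK phosphatases, Sprouty and Spred genes had 10 members tested, of which 6 rose and 1 fell with LPS. Dusp5, which encodes a nuclear ERK phosphatase, rose by 1.87 ± 0.12. Dusp1, whose product switches off p38 and JNK, went the other way: it was at 47.8, 51.2 and 72.3 TPM in DMSO, 10.3, 10.1 and 10.5 TPM in LPS, and 18.6, 18.4 and 18.8 TPM in LPS + Ska. Dusp1 thus fell by 2.34 ± 0.13 with LPS and was the 1 gene of the list called with skatole, higher by 0.80 ± 0.13 (adjusted p = 0.0027).

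Of 18 other immediate-early genes tested, 3 rose and 7 fell with LPS, and 0 rose and 3 fell with LPS + Ska compared with LPS (1 higher and 7 lower at an unadjusted p below 0.05). Klf4 and Klf2, Krüppel-like factors that hold macrophages in a less inflammatory state, fell by 3.25 ± 0.12 and 2.33 ± 0.13 with LPS. Myc rose by 1.86 ± 0.13 and Ier3, a survival gene, by 1.75 ± 0.22. With skatole, Nr4a2, an orphan nuclear receptor, was the lowest of the list at -1.22 ± 0.26 (adjusted p = 0.0089), from 8.01, 8.52 and 7.49 TPM in LPS to 2.88, 3.42 and 2.33 TPM. Arc, a gene best known from synapses, at -0.61 ± 0.11 and Klf2 at -0.59 ± 0.13 were called too. Both of these calls were lost after median-ratio scaling, that of Arc without LPS + Ska replicate 7, and that of Klf2 without LPS replicate 7 or LPS + Ska replicate 6.

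The last list held genes that textbooks place under AP-1 or EGR control, and it too was drawn up with earlier results known. Of all genes tested, 12.7% were called higher and 20% lower with LPS compared with DMSO. Of 15 genes of this list tested, 11 rose and 0 fell with LPS (13 higher and 1 lower at an unadjusted p below 0.05), and the median was 0.90. The chemokine gene Ccl2 led them, from 4.64, 6.30 and 5.82 TPM in DMSO to 234, 241 and 226 TPM in LPS. With LPS + Ska compared with LPS, 2 rose, 1 fell and 12 were not called. Plau, which encodes urokinase, went from 93.1, 89.4 and 96.7 TPM in LPS to 52.7, 56.6 and 48.9 TPM with skatole, at -0.81 ± 0.08 (adjusted p = 1.9e-04). Mmp12, macrophage elastase, rose by 1.42 ± 0.13 (adjusted p = 1.3e-04), from 3.26, 3.38 and 3.14 TPM to 10.4, 11.8 and 9.07 TPM.

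**Figure D4:**
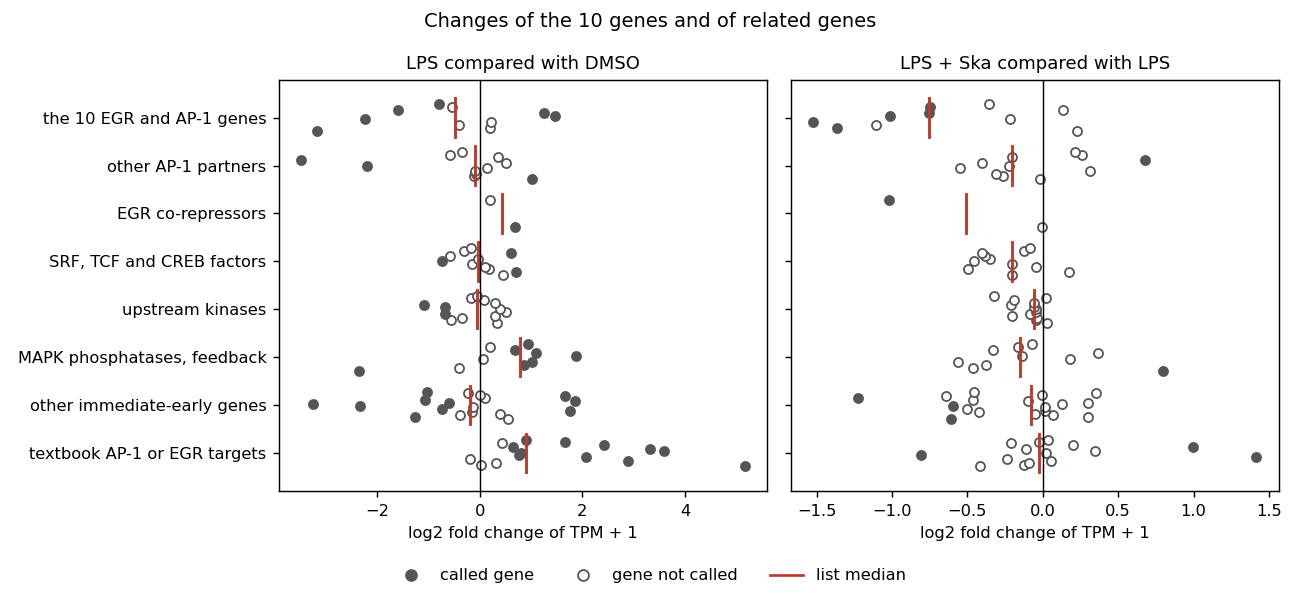
Log2 fold change of TPM + 1 of the 10 genes and of the 7 lists of related genes, 1 point per gene tested, for LPS compared with DMSO and for LPS + Ska compared with LPS, with filled points for called genes and a line at the median of each list. With skatole the 10 genes have a median of -0.75, the serum response and CREB factors of -0.21 and the kinases of -0.055 (as deposited; -0.11 and 0.048 after median-ratio scaling), and the latter 2 lists hold no filled point in that panel.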

How the data were processed

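RNA of 9 samples of RAW264.7 cells, 3 per group, was sequenced. According to the submitters' processing notes, fastp 0.20.1, HISAT2 2.2.1, StringTie 2.0 and the build mm10 were used. The authors deposited one table of TPM values per gene; no read counts were used here. Identifiers were paired with symbols through the GENCODE annotation of GRCm38 (55141 of 55401). Values were taken as log2(TPM + 1), so changes of low genes are understated, and genes averaging 1 TPM or more were kept. All 9 columns were fitted with limma 3.58.1 (lmFit and eBayes with an intensity trend, R 4.3.3), without a replicate term, and p-values were adjusted by Benjamini-Hochberg over 12819 genes. Calls needed an adjusted p below 0.05 and the study's fold limits of 1.5 and 0.67. The fit was checked on simulated data with 9 independent columns, so that check does not cover the tied columns. The members and lists were chosen with earlier results of these data known. From each related list, the called gene with the largest change in each direction per comparison was named, and every called gene for LPS + Ska compared with LPS where a list had up to 4. Some genes that this rule named are not reported here. Promoter windows were matched by symbol. After subtraction of the group mean, LPS columns correlated with LPS + Ska columns of the same number at 0.38, 0.15 and 0.13 (replicates 5, 6 and 7). For the other comparisons r lay from -0.032 to 0.08. In the tied groups these 3 values are not separate observations, so the numbers were not taken as pairs; the labels do not say what they mark. Alternatives changed the pseudocount, filter, scaling, samples, variance prior, block and limits.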

Additional observations from a re-analysis of the deposited data

How the results depend on the processing

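Under all alternatives tried, 109 of 114 recomputed counts of members stayed within 1.5 times their value. The exceptions were the members called lower with LPS + Ska compared with LPS, of which 3 remained with a fold change above 2 or below 0.5, and the members called higher with LPS + Ska compared with DMSO, which went from 0 to 1 with median-ratio scaling and with the adjusted p alone, and ranged from 0 to 1 when 1 column was left out (1 without DMSO replicate 7, Fosl2, and without LPS + Ska replicate 6, Fosl1). Leaving out 1 column gave 4 to 6 members called lower with LPS + Ska compared with LPS. Turning direction was seen for 2 small changes that were not called: Egr2 with LPS compared with DMSO ranged from -0.73 to 0.070 when 1 column was left out, and Egr3 from -0.045 to 0.47. Of the other recomputed changes of members, 544 kept their side of the limits, 12 lost a call and 12 gained one. Of the list medians 323 moved by less than the spread between columns and 34 by more. Over all genes, the adjusted p alone called 1139 higher and 2524 lower with LPS + Ska compared with LPS, and a fold change above 2 or below 0.5 called 142 and 199, against 429 and 787. With LPS compared with DMSO these were 3354 and 4380, and 547 and 928, against 1630 and 2559. With LPS + Ska compared with DMSO they were 2915 and 5201, and 519 and 1234, against 1457 and 3243. Without LPS replicate 5 the comparison of LPS + Ska with LPS gave 329 and 576 calls. The fit without a filter on low values had residual variances of exactly 0 for most of the genes, which makes its shared variance unreliable.

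With the replicate block, the members called lower with LPS + Ska compared with LPS were 4 in place of 5, Fosl1 being lost at an adjusted p of 0.054 (0.0068 to 0.1 over all alternatives), and the calls over all genes were 427 higher and 771 lower. Whether the shared numbers pair the samples could not be settled from the tied columns: between LPS and LPS + Ska all 3 same-numbered correlations were over 0.1, and in 9 of 18 pairings of a column with another group, the column correlated best with the one of its own number.

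Depth could not be weighed, since TPM values keep no counts.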

Other observations

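The genes whose pattern over the 9 columns was most like that of a member were found by Pearson's r on log2(TPM + 1), as a description: the columns are tied and differ mainly by group, so r mostly compares 3 group levels. Egr1 was nearest to Tars (r = 0.993), a threonine tRNA synthetase, and to Fut10. Egr3 was nearest to Gins1 (0.991), a DNA replication factor, and to Sipa1l1, and Egr2 to Gm8494 and Ctps (0.988), the latter a CTP synthase. Fosl1 lay nearest to Phf5a (0.985) and Gm4950, and Fosl2 to Dtx3l (0.994) and Srpr. Fos lay nearest to Pcnt and Relt (0.998), Jun to Nagk (0.999) and Ppt2, Junb to Tubg1 and Med27 (0.999), Jund to Mcrip2 and Kmt5c, and Atf3 to Nectin1 and Ly86 (0.999). The number of genes with r above 0.9 differed widely, from 42 for Fosl1 and 170 for Egr1 to 1878 for Fos and 1883 for Atf3.

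Of the related genes, 12 had a mean below 1 TPM and were not tested: Batf, Batf3, Maf, Egr4, Map2k6, Dusp8, Spry1, Spry4, Nr4a3, Ccn1, Mmp13 and F3.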
